A study of Bos taurus with 48 samples.

Results

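Osteopontin and the integrin subunits that form its receptors were described as 10 genes, SPP1, ITGAV, ITGB1, ITGB3, ITGB5, ITGB6, ITGA4, ITGA5, ITGA8 and ITGA9, of 15588 genes with a symbol on a bovine oligonucleotide microarray. Their 11 probes, of 21475 on the array, were those whose gene name, or whose symbol in the closing brackets of the probe description, was one of the 10 symbols, and ITGAV had 2. All animals were lactating Holstein-Friesian dairy cows of mixed New Zealand and North American ancestry with synchronised oestrous cycles, killed on day 17 of the cycle. The 12 pregnant cows had received a grade 1 blastocyst on day 7 and the 10 cyclic cows had not. Caruncular and intercaruncular endometrium were taken from each cow, giving 44 samples, and cows are named by state and number as in the sample labels (non-pregnant being cyclic). Of the pregnant cows, 7 carried an embryo labelled large (over 75 mg) and 5 a small embryo (under 20 cm and under 40 mg). A second label, for which no definition was used here, called 6 pregnant cows fertile and 6 sub-fertile. The 4 combinations held 3 fertile cows with a large embryo, 3 fertile with a small embryo, 4 sub-fertile with a large embryo and 2 sub-fertile with a small embryo.

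Osteopontin is a secreted, phosphorylated glycoprotein of the extracellular matrix that carries an RGD motif. Integrins are receptors made of an alpha and a beta subunit that link the matrix to the cytoskeleton. The alpha v subunit pairs with beta 1, beta 3, beta 5 or beta 6, the alpha 5 and alpha 8 subunits pair with beta 1, and all of these bind the RGD motif. The alpha 4 and alpha 9 subunits bind a neighbouring site of osteopontin. In ruminants the protein is known as a component of uterine secretions and as a ligand through which the conceptus can attach to the uterine epithelium, and macrophages and other immune cells also produce it.

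Values were log2 ratios of a sample (Cy5) to a pool of equal amounts of all 44 samples (Cy3), so a value of 0 was the level of the pool, and levels of different genes were not compared. A probe was called changed by pregnancy or between tissues at 1.5-fold or more and an adjusted p under 0.05 (limma, Benjamini-Hochberg over all probes tested), and by embryo or fertility label at an adjusted p under 0.05. Of the 11 probes 10 passed the filter on dim probes, which left 14690 probes on the array. The exception was the probe of ITGA4, the alpha 4 subunit of leukocyte integrins, which was well above background in 6 of 10 cyclic and 8 of 12 pregnant caruncular samples and in 2 of 10 and 8 of 12 intercaruncular samples. It was not tested, and it met the signal minimum in only 2 of 44 samples. Among the 4 samples hybridised a second time the SPP1 values of the paired arrays differed by -0.01 to 0.19. ITGB1 was higher on the repeat array in the 3 cows in which both arrays could be read, by 0.40 to 0.61, and the repeat arrays had been scanned in a later batch. For the other 8 probes tested the repeat differed by -0.13 to 0.19. In bulk tissue, more RNA per cell and more cells of a type cannot be told apart.

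The probe for ITGB3 is shown because 2 results rest on it. This integrin subunit was called for pregnancy in caruncular tissue only and for embryo label in intercaruncular tissue only. It is printed 5′ to 3′ as the study's supplement lists it, in lower case throughout since no part of it was singled out.

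ITGB3 probe: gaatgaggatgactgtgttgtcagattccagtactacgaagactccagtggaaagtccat

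SPP1 varied widely between cows. In caruncular endometrium of cyclic cows the lowest log2 ratio was -3.58, the median -2.13 and the highest 0.86 (SD 1.95, n = 10). In pregnant cows the lowest was -3.11, the median 1.48 and the highest 3.17 (SD 1.75, n = 12). The cyclic values were not spread evenly: 5 cows lay between -3.58 and -3.14, cow Non-Pregnant_2952 was at -1.12, and cows Non-Pregnant_9786, Non-Pregnant_3972, Non-Pregnant_9960 and Non-Pregnant_9813 were at 0.06, 0.53, 0.78 and 0.86. Of the pregnant cows, 10 lay between 0.66 and 3.17, and cows Pregnant_926 at -1.82 and Pregnant_9246 at -3.11 lay below them, among the cyclic cows. The SD of SPP1 ranked 7th among 14690 probes in the cyclic and 22nd in the pregnant caruncular samples, where the median SD was 0.27 and 0.25.

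In intercaruncular endometrium SPP1 lay between -4.56 and -2.30 in the 10 cyclic cows (median -3.80, SD 0.80) and between -4.09 and -0.16 in the 12 pregnant cows (median -1.75, SD 1.32). Its SD ranked 516th and 79th of 14690 probes in these groups. Ordered by mean, the log2 ratios were 0.94 in pregnant caruncular, -1.55 in cyclic caruncular, -1.90 in pregnant intercaruncular and -3.56 in cyclic intercaruncular samples. The middle pair differed by less than the SD of either group, and by median their order was the other way round. Cow Pregnant_9246 had the lowest SPP1 of the pregnant cows in both tissues. The labels of its embryo and of its fertility were small and fertile.

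**Figure D1:**
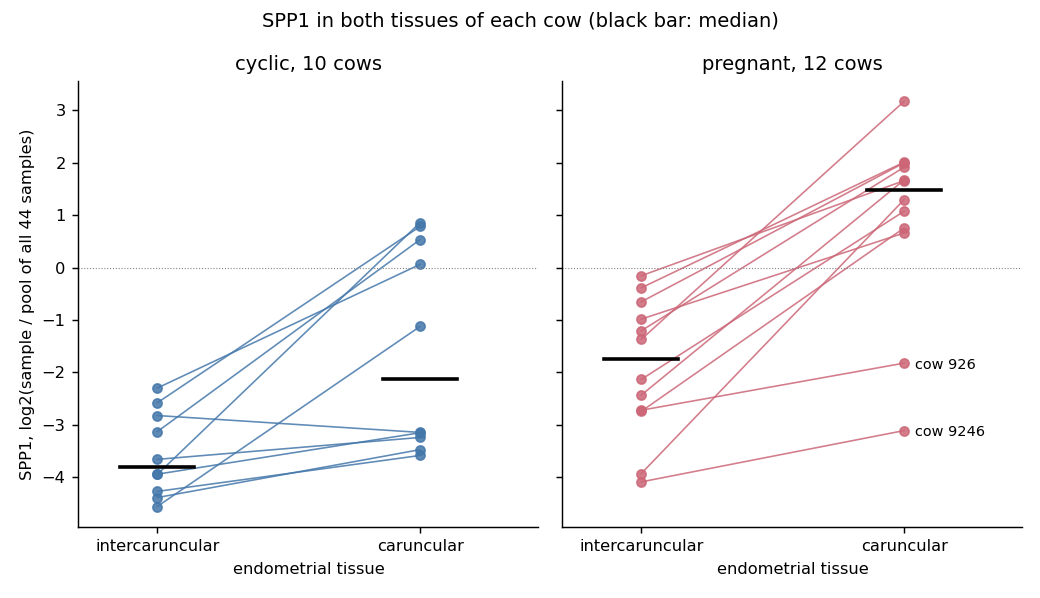
SPP1 log2 ratio of sample to pool (vertical axis) in intercaruncular and caruncular endometrium of 10 cyclic and 12 pregnant cows. Each line joins both tissues of a cow, and black bars are medians, at -3.80 and -2.13 in cyclic and -1.75 and 1.48 in pregnant cows. Caruncular values of cows Pregnant_926 and Pregnant_9246 lay below those of the other 10 pregnant cows.

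Whether SPP1 went together in both tissues of a cow was examined within each reproductive state. In the 12 pregnant cows Pearson's r was 0.629 (p = 0.0234, adjusted over 2 relations 0.0467) and Spearman's rho 0.587 (p = 0.0492, adjusted 0.0984, two-sided permutation tests). Without the cows farthest from the caruncular median, Pregnant_9246 and Pregnant_926, r was 0.350 (p = 0.324, permutation test), so that the relation rested on those cows. In the 10 cyclic cows r was 0.462 (p = 0.174, adjusted 0.174) and rho 0.430 (p = 0.2203, adjusted 0.2203, two-sided permutation tests), and r was 0.497 without cows Non-Pregnant_9813 and Non-Pregnant_9960 (p = 0.214, permutation test). Caruncular values had a gap in both states, of 2.48 with 2 pregnant cows below it and of 2.02 with 5 cyclic cows below it, so that each coefficient spans separate sets of cows. Across all tested probes the deviations of a cow from its group means went together in both tissues in each of the 22 cows (r = 0.11 to 0.87).

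Pregnancy was compared within each tissue, to ask which members differed in the presence of an embryo. SPP1 and ITGB3, the beta subunit that with alpha v forms the vitronectin receptor, were up-regulated in pregnant caruncular endometrium, and SPP1 was up-regulated in pregnant intercaruncular endometrium. Of the 10 probes tested, 2 were called higher and none lower in caruncular tissue, where 9.99% of all 14689 probes fitted were called, 5.77% higher and 4.21% lower. In intercaruncular tissue 1 was called higher and none lower, against 7.24% of 14687 probes called, 3.99% higher and 3.25% lower. Counts this small lie near that background and were read for the named genes, not for the set. The median log2 difference of the 10 probes was 0.16 in caruncular and 0.32 in intercaruncular tissue, and that of all probes was -0.04 and -0.01.

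SPP1 was 5.60-fold higher in pregnant caruncular tissue, a log2 difference of 2.49 (SE 0.74, limma adjusted p = 0.0164), and 8 of 12 pregnant cows lay above every cyclic cow. In intercaruncular tissue it was 3.16-fold higher, a log2 difference of 1.66 (SE 0.45, limma adjusted p = 0.0117), with 7 of 12 pregnant cows above every cyclic cow. The remaining pregnant cows overlapped the cyclic ones in both tissues. SPP1 stood 79th of 14689 probes from the largest increase in caruncular and 100th of 14687 in intercaruncular tissue. The increase did not differ detectably between the tissues: the interaction was 0.83 on the log2 scale (95% confidence interval -0.97 to 2.62, limma adjusted p = 0.966), and 0 of the 10 probes were called where 0.0204% of all probes were. With the cow as a fixed or random replicate block, 150 or 425 of all probes were called and again 0 of the 10 members. In the main design, with no cow term, 3 of all probes were called for the interaction. Leaving out the 2 cows hybridised only in the third scan batch from that design gave 108 of all probes and 0 members. Leaving out every array of that batch, and so also 4 repeat arrays, gave 87 and 0.

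Slides bear on these values. Tissue samples of each state were mostly on slides of their own, and 3 slides held both states within a tissue. On them SPP1 was higher in pregnant cows by 1.43 (caruncular, 3 against 1), lower, at -0.95, on a slide of caruncular repeat arrays and cow Pregnant_9790 (2 against 1), and higher by 1.91 (intercaruncular, 3 against 1). A fit with slide as a fixed block, on first arrays, gave the same 1.43 in caruncular and 1.91 in intercaruncular tissue. In each tissue it compared 3 pregnant cows with 1 cyclic cow on a single slide, too few to judge a call. With slide as a random block the log2 difference was 2.35 (limma adjusted p = 0.0783) and 1.59 (limma adjusted p = 0.0786). Within the scan batches that held most arrays it was 2.63 (11 against 9 caruncular) and 1.85 (11 against 9 intercaruncular). In the third scan batch it was 0.33 (2 against 4 caruncular arrays) and -0.13 (1 against 1 intercaruncular). Leaving out any 1 cow gave 2.26 to 2.85 and 1.5 to 1.86, all past the threshold.

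The alpha v partners are taken next. In caruncular tissue ITGB3 was lowest at -1.21, with a median of -0.70 and a highest value of -0.04 in cyclic cows, and ran from -0.72 to 1.08 (median 0.10) in pregnant cows. It was 1.63-fold higher in pregnancy (log2 difference 0.71, SE 0.20, limma adjusted p = 0.0125), and 8 of 12 pregnant cows lay above every cyclic cow. On the slides holding both states the difference was 0.97 (3 against 1) and 0.58 (2 against 1). The fit with slide as a fixed block rests on the first of these slides alone. In intercaruncular tissue ITGB3 ran from -0.94 to 0.56 in cyclic and from -0.36 to 0.98 in pregnant cows, and the log2 difference of 0.46 (SE 0.20) did not pass (adjusted p = 0.109).

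ITGAV, the alpha v subunit itself, was read by 2 probes. Probe A_73_117001, annotated to the gene, differed by 0.58 in caruncular tissue (adjusted p = 0.0331), a fold change of 1.49 that fell just short of the 1.5-fold threshold. Leaving out 1 cow moved it across that threshold in 10 of 22 cases. Probe A_73_117116, an expressed sequence tag described as ITGAV, differed by 0.20 (adjusted p = 0.123). In intercaruncular tissue the differences were 0.39 and 0.26 (adjusted p = 0.109 and 0.143). Both probes thus had the higher mean in pregnant cows in both tissues, and neither was called.

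ITGB5 and ITGB6, beta subunits that pair with alpha v, had log2 differences of 0.13 and 0.19 in caruncular tissue and of 0.43 and 0.49 in intercaruncular tissue. None of these passed (adjusted p = 0.112 and 0.115 in intercaruncular tissue), and the groups overlapped. ITGB6, which is restricted to epithelia, ran from -1.10 to 0.53 in cyclic and from -0.61 to 1.09 in pregnant intercaruncular samples.

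ITGB1, the beta subunit shared by alpha v, alpha 4, alpha 5, alpha 8 and alpha 9, was lower in pregnant caruncular tissue. Its values were 0.11 to 0.82 (median 0.50) in cyclic and -0.37 to 0.72 (median -0.02) in pregnant cows, a log2 difference of -0.42 (SE 0.12, adjusted p = 0.0134). The fold change of 1.34 was under the threshold, and 26.9% of all probes had an adjusted p under 0.05 with no fold threshold. In intercaruncular tissue the difference was 0.02. Repeats of this probe read higher in the third scan batch, and arrays of that batch entered the values of 4 of 10 cyclic and 2 of 12 pregnant caruncular samples. These 4 were the highest cyclic values, at 0.63 to 0.82, and the highest pregnant values in both tissues, 0.72 and 0.32, were from cow Pregnant_9790 of the same batch. Within the second scan batch the caruncular difference was -0.35 (11 against 9 cows, the probe being read in 8 of the 9). In 1 caruncular sample, of cow Non-Pregnant_3811, the spots of ITGB1 were saturated.

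The remaining alpha subunits differed little by pregnancy. ITGA5, the fibronectin receptor alpha subunit, differed by 0.07 in caruncular and -0.23 in intercaruncular tissue, ITGA8, the alpha subunit of the nephronectin receptor, by 0.09 and -0.21, and ITGA9 by -0.17 and -0.18. Their SEs were 0.10 to 0.23 and none passed.

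**Figure D2:**
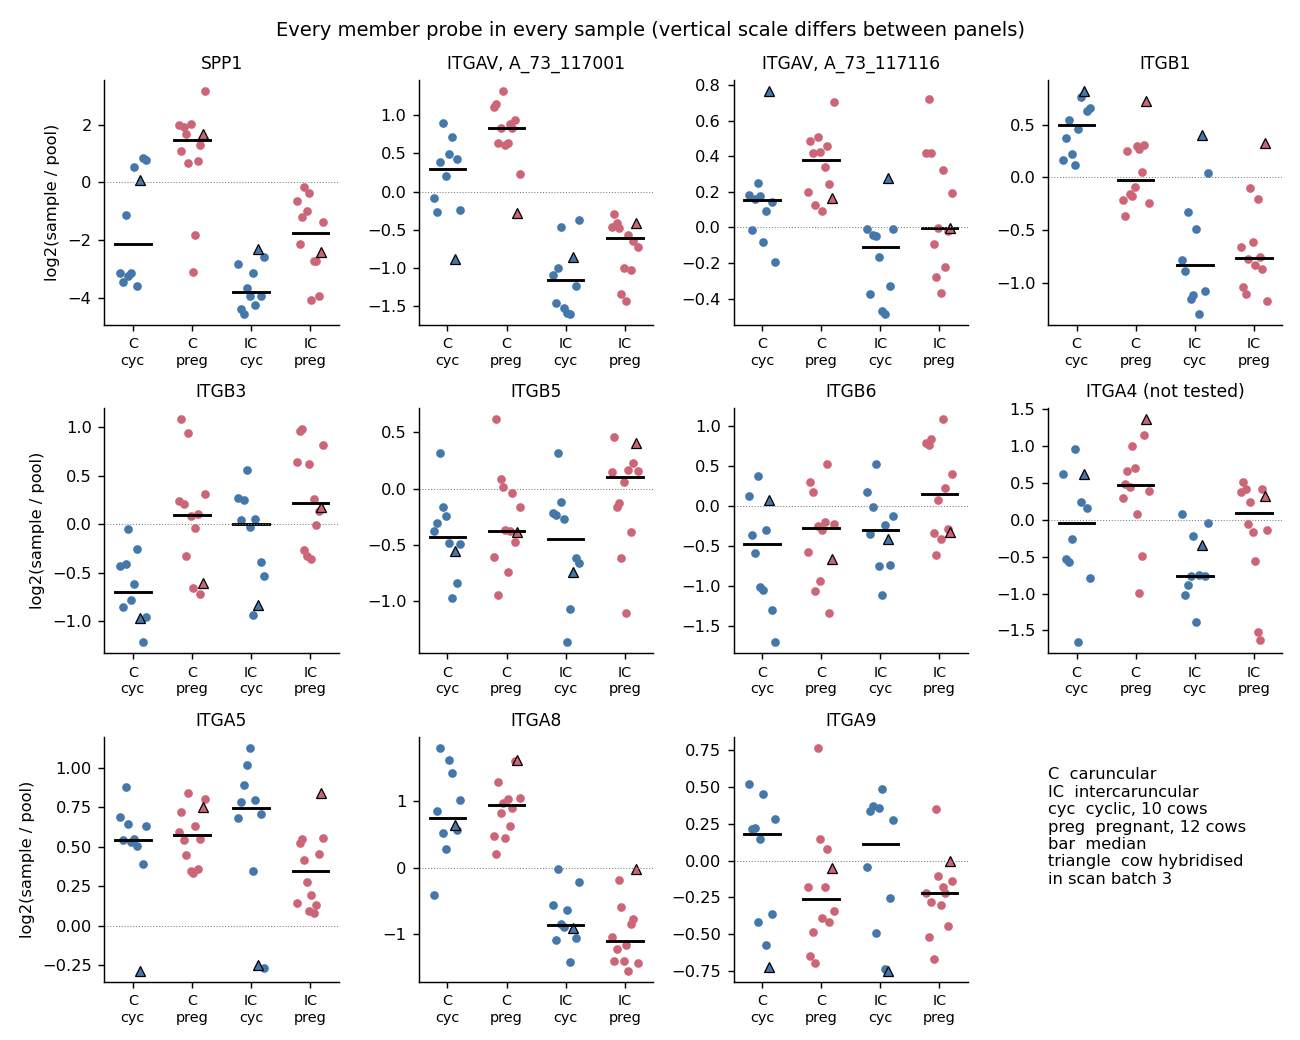
Log2 ratio of sample to pool (vertical axis, its own scale in each panel) for all 11 probes in caruncular (C) and intercaruncular (IC) endometrium of 10 cyclic (cyc) and 12 pregnant (preg) cows. Bars are medians and triangles are the cows hybridised in the third scan batch. SPP1 and ITGB3 were higher in pregnant caruncular samples, and ITGA8 was higher in caruncular tissue of every cow.

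Tissues were compared across all 44 samples with reproductive state as a covariate and no cow term, so that both tissues of a cow counted as separate samples. SPP1, ITGA8, ITGB1 and the ITGAV probe A_73_117001 were higher in caruncular tissue, which made 4 of 10 probes called, all upward, where 14.9% of all 14690 probes were called, 8.2% higher and 6.71% lower. The median difference of the 10 probes was 0.18 and that of all probes -0.02. Most caruncular and intercaruncular samples were hybridised on different slides in different scan batches, so tissue and batch cannot be told apart over the whole set. Only cows Non-Pregnant_9786 and Pregnant_9790 had both tissues on the same slide, and their values are given beside the results of the 4 called probes. Tissue differences of genes in the later lists were not set against slide in this way.

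SPP1 was higher in caruncular tissue in 21 of 22 cows, by a median of 2.52 on the log2 scale (range -0.32 to 5.22). The fitted difference was 2.46 (SE 0.44, 5.51-fold, limma adjusted p = 8.39e-06), the 8th largest increase of 14690 probes. The exception was cow Non-Pregnant_1940, and cows Non-Pregnant_9786 and Pregnant_9790 differed by 2.36 and 4.10 within their slides. SPP1 was thus higher in caruncular tissue in the cows whose tissues shared a slide, and the part of slide or scan batch in its size was not tested.

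ITGA8, which pairs with ITGB1, lay between -0.41 and 1.79 in caruncular and between -1.54 and -0.02 in intercaruncular samples. It was higher in caruncular tissue in all 22 cows (fitted difference 1.75, SE 0.15, limma adjusted p = 3.1e-12), and within the shared slides it differed by 1.53 and 1.63.

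For ITGAV the probes went apart. A_73_117001 was higher in caruncular tissue in 21 of 22 cows with a fitted difference of 1.39 (SE 0.13, limma adjusted p = 2.75e-11), and A_73_117116 in 19 of 22 cows with a difference of 0.28 (SE 0.08, 1.22-fold). Within the shared slides A_73_117001 differed by only -0.03 (cow Non-Pregnant_9786) and 0.14 (cow Pregnant_9790), and A_73_117116 by 0.49 and 0.17. The larger tissue difference of the first probe was therefore not seen in the cows whose tissues were hybridised together, and the part of slide or scan batch in it was not tested further.

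ITGB1 was higher in caruncular tissue in 21 of 22 cows (0.90, SE 0.12, limma adjusted p = 6.08e-08). Within the shared slides it was higher by 0.41 and 0.39, less than the fitted 0.90. ITGB3 and ITGB6 had caruncular minus intercaruncular differences of -0.36 and -0.43 (adjusted p = 0.0298 and 0.0285), both under 1.5-fold, where 57.5% of all probes had an adjusted p under 0.05, and ITGB5, ITGA5 and ITGA9 differed by -0.08, 0.09 and 0.03. With the cow as a replicate block, which pairs the tissues of a cow, 4 members were called and the fitted differences of the 10 probes were the same.

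**Figure D3:**
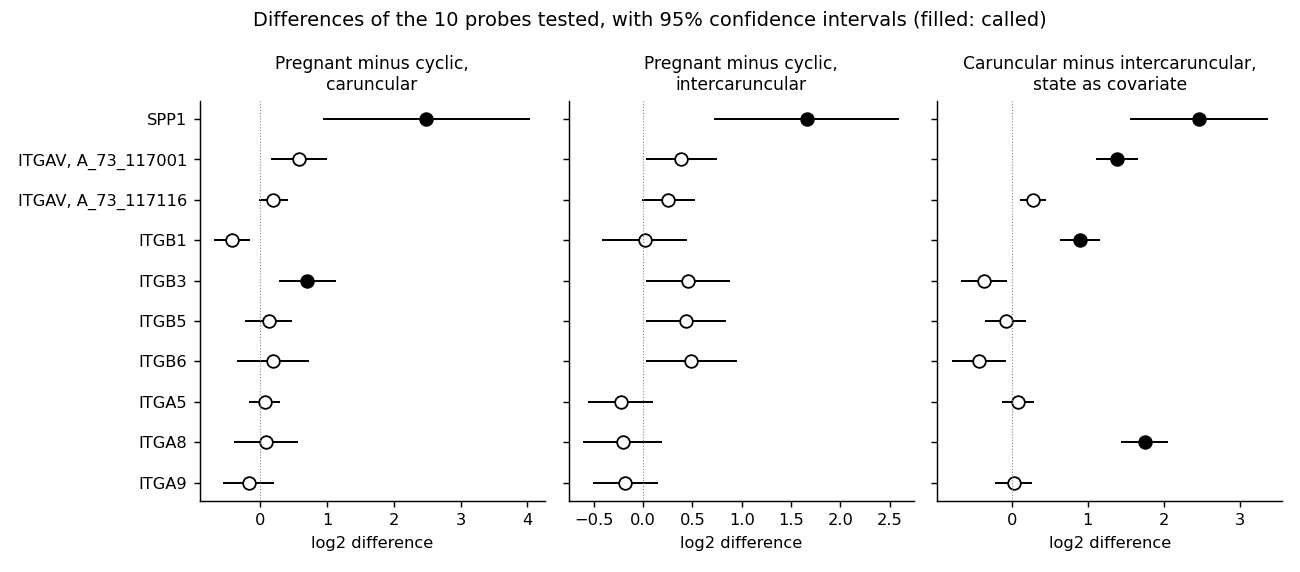
Log2 differences (horizontal axis) with 95% confidence intervals of the 10 probes tested, for pregnant minus cyclic cows in each tissue and for caruncular minus intercaruncular tissue. Filled circles were called at 1.5-fold or more and an adjusted p under 0.05: SPP1 and ITGB3, SPP1 alone, and 4 probes including SPP1 and ITGA8, from left to right.

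Among pregnant cows, those with a large embryo were set against those with a small embryo. In intercaruncular tissue ITGB3 was higher with a large embryo, and all 7 such cows lay above all 5 with a small embryo. Its log2 ratios with a large embryo were 0.18, 0.26, 0.62, 0.64, 0.82, 0.96 and 0.98, and with a small embryo -0.36, -0.33, -0.27, -0.01 and 0.13. The difference was 0.80 (SE 0.16, 1.74-fold, limma adjusted p = 0.0260). This was 1 of 10 probes called, where 3.69% of all 14690 probes were called, 1.57% higher and 2.12% lower. How many of all probes separated these labels fully was not counted, and 3169 of them had an unadjusted limma p under 0.05. Leaving out cow Pregnant_1943, Pregnant_3805, Pregnant_3807, Pregnant_9246 or Pregnant_932 in turn ended the call (adjusted p = 0.0535 to 0.0771, difference 0.74 to 0.84), and leaving out cow Pregnant_9790, the only one in the third scan batch, gave 0.88 (adjusted p = 0.00488).

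The other alpha v subunits had the higher mean with a large embryo in the same tissue, without passing. ITGAV probe A_73_117116 ran from -0.37 to -0.02 with a small and from -0.01 to 0.72 with a large embryo. These ranges did not overlap but lay next to each other (difference 0.49, SE 0.13, limma adjusted p = 0.0547). ITGB6 differed by 0.80 (adjusted p = 0.0759), ITGB5 by 0.58 (adjusted p = 0.113) and ITGAV probe A_73_117001 by 0.43 (adjusted p = 0.187). Without cow Pregnant_9790, 4 of the 10 probes were called and 1882 of 14689 over the array, in place of 542, the 4 including ITGB6 (0.94, adjusted p = 0.0115) and A_73_117116 (0.54, adjusted p = 0.0179).

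SPP1 did not pass by embryo label. In intercaruncular tissue it ran from -2.72 to -0.39 with a large and from -4.09 to -0.16 with a small embryo, a difference of 0.82 (95% confidence interval -0.67 to 2.31, limma adjusted p = 0.526). In caruncular tissue the difference was 1.18 (95% confidence interval -0.77 to 3.13, adjusted p = 0.852). In caruncular tissue 0 of 10 members were called and 0% of all 14688 probes, with 1014 probes at an unadjusted p under 0.05.

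**Figure D4:**
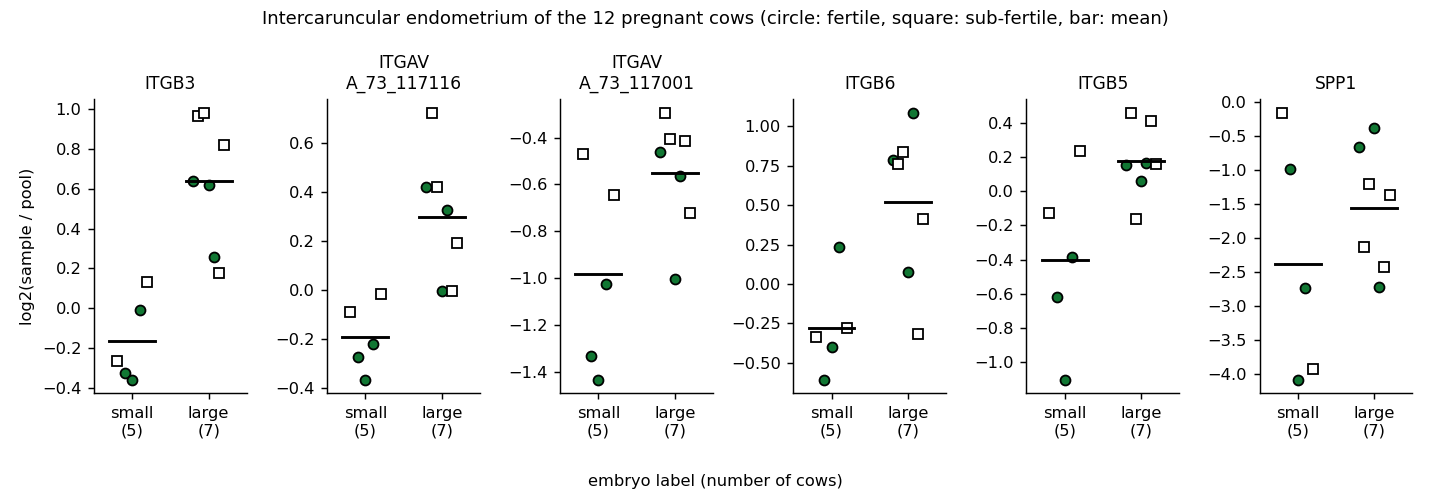
Log2 ratio of sample to pool (vertical axis, its own scale in each panel) in intercaruncular endometrium of 5 pregnant cows with a small and 7 with a large embryo. Bars are means, circles are cows labelled fertile and squares sub-fertile. ITGB3 and ITGAV probe A_73_117116 did not overlap between the embryo labels, while SPP1 did. How many of all probes separated the labels fully was not counted.

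By fertility label 0 of 10 probes were called in either tissue, against 0% of all probes in caruncular and 0.0477% in intercaruncular tissue. SPP1 in caruncular tissue was between 1.07 and 3.17 in the 6 sub-fertile cows and between -3.11 and 2.01 in the 6 fertile cows. The difference, fertile minus sub-fertile, was -1.72 (SE 0.81, unadjusted limma p = 0.0559, adjusted p = 0.372), and the lowest fertile values were those of cows Pregnant_9246 and Pregnant_926. In intercaruncular tissue it was -0.06 (SE 0.71). ITGA5 in intercaruncular tissue was lower in every fertile cow (0.08 to 0.27) than in every sub-fertile cow (0.42 to 0.84), with a difference of -0.40 (SE 0.08) that did not pass over all probes (unadjusted limma p = 3.78e-04, adjusted p = 0.121). In each tissue only a single slide held first arrays of cows of both fertility labels. Label and slide therefore cannot be told apart for most cows, for SPP1 in caruncular tissue as for ITGA5. The share of all probes that separated these labels fully was not counted. In caruncular tissue ITGA5 differed by -0.12 and overlapped.

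Other genes of the pathway were taken from fixed lists. Of all probes, 5.77% were called higher and 4.21% lower in pregnant caruncular tissue, and 3.99% and 3.25% in intercaruncular tissue. Of 14 tested probes for further integrin subunits, ITGAE (-0.60) and ITGB8 (-0.65), a further partner of alpha v, fell in caruncular tissue of pregnant cows and ITGA7 (-0.69), the laminin-binding alpha subunit of muscle, fell in intercaruncular tissue, and none rose. Of 11 probes for other ligands of the same integrins, LGALS3BP rose in both tissues (1.05 and 0.73) and CYR61 fell in both (-1.08 and -0.93), and NPNT, which encodes nephronectin, fell in caruncular tissue (-1.13). TNC (tenascin C) was higher in caruncular than intercaruncular tissue by 3.21, and EMILIN1 by 0.59. Of 2 FBN1 probes 1 was called (0.65) and the other was not (0.38). Among 5 tested probes of proteins that cleave, cross-link or otherwise modify osteopontin, TGM2, a transglutaminase, rose in both tissues (0.93 and 0.67), and F2, prothrombin, fell in caruncular tissue (-0.75). The other osteopontin receptor, CD44, met the signal minimum in 1 of 44 samples and was not tested. Of 15 probes of the cytoplasmic integrin adhesion complex, FERMT3, the kindlin of blood cells, rose in caruncular tissue (0.78), and none was called in intercaruncular tissue.

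The genes whose pattern was most like that of SPP1 were sought over the 44 samples after the mean of each tissue and state was subtracted. The 10 named probes with the highest Pearson's r were CCR1 (0.83), VSIG4 (0.79), CD68 (0.72), MSR1 (0.71), MRPS9 (0.71), FABP5 (0.70), SGCA (0.68), MS4A7 (0.68), RGS20 (0.68) and IGSF6 (0.68). The 5 lowest were TBC1D4 (-0.61), SEC14L3 (-0.58), CAV1 (-0.55), SP5 (-0.54) and PODN (-0.53). CD68, MSR1 and VSIG4 are known from macrophages. Within single groups these coefficients differed. For CD68 r was 0.89 in cyclic and 0.74 in pregnant caruncular samples, and 0.16 and 0.46 in intercaruncular samples. In the same order it was 0.86, 0.82, 0.84 and 0.56 for VSIG4 and 0.84, 0.76, 0.73 and 0.55 for MSR1. SP5, among the lowest over all samples, had r of 0.11 in cyclic intercaruncular samples. The other members had r between -0.23 and 0.22. These coefficients describe 44 samples that come from 22 cows in pairs, and carry no test.

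Among the cell type lists, macrophage and monocyte markers went most closely with SPP1. Of 12 macrophage and monocyte probes, 8 rose with pregnancy in caruncular and 5 in intercaruncular tissue, where 5.77% and 3.99% of all probes rose. C1QB, a complement component of macrophages, was up by 1.79 and 1.23, and CD86 was up by 0.98 in caruncular tissue. The r of the 12 probes with SPP1 was 0.16 to 0.72 (median 0.53), and the median over all 14358 probes was 0.003. The median r was 0.15 for lymphocyte, -0.17 for smooth muscle, -0.20 for endothelial and -0.245 for epithelial probes. The mean log2 ratio over the 12 probes ran from -1.09 to -0.10 in cyclic and -0.21 to 0.86 in pregnant caruncular samples, and from -0.86 to -0.10 and -0.57 to 0.73 in intercaruncular samples. Between tissues, caruncular minus intercaruncular, their median difference was 0.22, against -0.02 over all probes. CD163 was called lower in caruncular tissue (-0.60). None was called higher at 1.5-fold, although MSR1 (0.47 and 0.30 by its 2 probes), MRC1 (0.44) and CD86 (0.26) had an adjusted p under 0.05.

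Cow by cow, cyclic caruncular samples with the lowest macrophage means, Non-Pregnant_1950 (-1.09), Non-Pregnant_9778 (-0.91) and Non-Pregnant_1940 (-0.88), had SPP1 at -3.47, -3.58 and -3.14. Those with the highest, Non-Pregnant_9813 (-0.10), Non-Pregnant_9786 (-0.12) and Non-Pregnant_9960 (-0.24), had SPP1 at 0.86, 0.06 and 0.78. Cow Pregnant_9246 had the lowest macrophage mean of the pregnant caruncular samples (-0.21), and cow Pregnant_926 was at 0.11. The part of macrophage content in the SPP1 result was not tested.

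**Figure D5:**
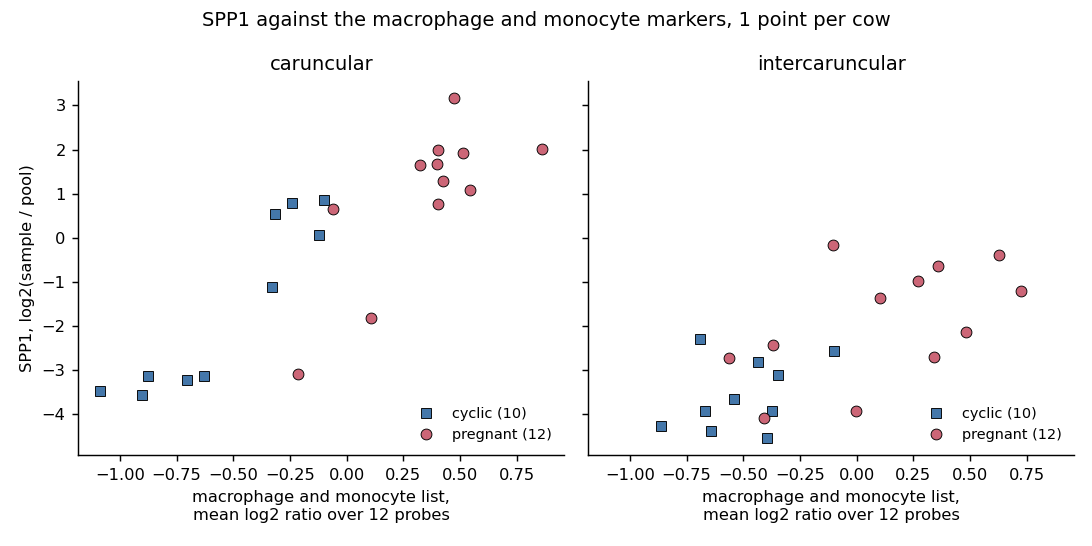
SPP1 log2 ratio (vertical axis) against the mean log2 ratio of 12 macrophage and monocyte probes (horizontal axis) in caruncular and intercaruncular endometrium, with a point for each of 10 cyclic (squares) and 12 pregnant (circles) cows. Cyclic caruncular samples with low macrophage means also had low SPP1, down to -3.58.

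The tissue labels and other cell types were checked with the remaining lists. FOXA2, the transcription factor of uterine glands, and the epithelial genes KRT18, EPCAM and ELF3 were higher in intercaruncular tissue (-2.16, -1.11, -0.67 and -0.64), and CDH1 was higher in caruncular tissue (0.69). CDH1 and CLDN4 rose with pregnancy in both tissues and KRT18 fell in caruncular tissue. The median pregnancy difference of the 7 tested epithelial probes was -0.36 in caruncular and 0.03 in intercaruncular tissue, so the list did not rise as a whole. The smooth muscle genes ACTG2, CNN1, MYH11 and TAGLN fell in pregnant cows in both tissues, as did PECAM1 and TEK of the endothelium. Of 8 lymphocyte probes only PRF1 rose, in caruncular tissue, where 5.77% of all probes rose (3.99% in intercaruncular tissue). All 4 tested interferon response probes rose in both tissues, by 3.13 to 5.46 in caruncular and 2.48 to 3.65 in intercaruncular samples, as a check of the pregnancy labels. Conceptus genes (7 probes) and HBB, the single probe for red cells and platelets, were too dim to be tested and met the signal minimum in 0 to 4 of 44 samples. PGR, the progesterone receptor, was not called (-0.23 and -0.28). The part of these cell types in the values of the integrins was not tested.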

How the data were processed

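Total RNA of 44 endometrial samples from 22 cows was amplified, labelled with Cy5 and hybridised to 48 bovine 60-mer arrays with a Cy3-labelled pool of all samples. There was no dye swap, and 4 caruncular samples were hybridised again. The 48 arrays lay on 12 slides in 3 scan batches. The authors' Agilent Feature Extraction runs flagged outlier spots, subtracted background with spatial detrending and applied LOWESS dye normalisation. Per the file headers, the deposited log10 ratio is sample over pool, and the deposited processed intensity of the Cy5 channel was used for the filter. The authors' deposited value table holds log2 ratios. For 40 of 48 arrays it equalled the log2 ratio of mean processed signals within 1e-05.

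The log10 ratios were converted to log2, outlier spots were left out, both spots of a probe were averaged, the array median was subtracted (0 on each of the 48 arrays) and repeat arrays were averaged. Probes with a sample signal of at least 80 units and well above background in at least 22 of 44 samples were tested, which kept 14690 of 21475. Tests used limma 3.58.1 in R 4.3.3 with Benjamini-Hochberg adjustment, with no cow term in the main design, and permutation tests used 100000 resamples in SciPy 1.17.1. The procedure was tested on simulated data. Replicates within a tissue were cows, so that p-values for pregnancy, embryo and fertility labels measure the spread between cows. The tissue difference and the interaction counted both tissues of a cow as separate samples. Their p-values in the main design therefore do not measure the spread of within-cow differences.

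The tissues of a cow are paired by the animal: same-cow deviations from group means correlated at 0.11 to 0.87 over probes, above 0.1 in 22 of 22 cows, against a median of -0.05 for different cows of the same state. Array precision is limited by the number of samples, and 68.8% to 84.0% of spots per array were well above background. Alternatives were normexp background correction with an offset of 50, other filters and centring, the deposited table, slide, scan batch or cow as a block, the methods' t-test and leaving out each cow. Genes were named from the array annotation, with 3524 probes also matched to RefSeq by accession. The rule for named genes took all members, up to 6 genes of each pathway list called for pregnancy, and the 10 probes of highest and 5 of lowest r with SPP1. Genes named for a tissue difference and markers of other cells were picked from the lists after their values were seen. Members and lists were chosen with earlier results of these data known.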

Additional observations from a re-analysis of the deposited data

Results flagged for a closer look

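In 10 of 100 groups of 5 to 10 samples examined, the highest or lowest value of a probe stood apart. Its gap to the rest was a large share of the group's range. Chance gives such a gap in about 1 of 20 groups. The embryo and fertility groups hold the same pregnant cows, so the groups were not independent. For SPP1 in caruncular tissue it was cow Pregnant_926 among the 7 cows with a large embryo (-1.82, gap 0.580 of the range) and cow Pregnant_9246 among the 5 with a small embryo (-3.11, gap 0.791 of the range).

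Of the other 8, 5 were from cows Non-Pregnant_9786 and Pregnant_9790, whose arrays were in the third scan batch. Cow Non-Pregnant_9786 stood apart among cyclic caruncular samples in ITGAV probe A_73_117116 (0.77, gap 0.540) and in ITGA5 (-0.28, gap 0.579). Cow Pregnant_9790 stood apart in intercaruncular tissue in ITGB1 (0.32, gap 0.733) and ITGA5 (0.84, gap 0.670) among sub-fertile cows and in ITGA8 (-0.02, gap 0.671) among cows with a large embryo. Cow Pregnant_3956 did so in intercaruncular ITGB1 with a small embryo (-0.10, gap 0.855) and in ITGA9 among fertile cows (0.35, gap 0.697), and cow Pregnant_977 in caruncular ITGA8 with a small embryo (1.59, gap 0.720).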

How the results depend on the processing

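The SPP1 pregnancy difference kept its direction under every alternative run across the cows in both tissues (1.43 to 2.85 and 1.5 to 1.91). With slide as a fixed block it was 1.43 in caruncular and 1.91 in intercaruncular tissue. That fit compared 3 pregnant cows with 1 cyclic cow on a single slide per tissue, so its calls cannot be judged. The difference was no longer called with slide as a random block (2.35 and 1.59). In intercaruncular tissue it was also not called with all samples in one fit (1.66, limma adjusted p = 0.0507). The number of members called fell from 2 to 1 with slide as a random block in caruncular tissue. In intercaruncular tissue it fell from 1 to 0 with that block and in the joint fit. Over all probes, slide as a random block called 653 in intercaruncular tissue, in place of 1063. The cause was not tested. For embryo label in intercaruncular tissue the number of members called was 2 with the deposited table, 4 with slide as a fixed block and 0 to 4 on leaving out 1 cow, and over all probes 319 with no filter, 1086 with slide as a fixed block and from 34 (without cow Pregnant_932) to 1882 (without cow Pregnant_9790) on leaving out 1 cow, in place of 542. Leaving out 1 cow gave SPP1 differences by fertility label of -0.47 to 0.37 in intercaruncular tissue, and 0.0817 with embryo size as a covariate in place of -0.06.

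Small differences changed sign. For pregnancy these were ITGA8 (-0.93 with slide as a fixed block) in caruncular tissue and ITGA5 (0.15 with slide as a fixed block) and ITGB1 (-0.0225 with normexp, -0.51 and -0.0826 with slide as a fixed and a random block) in intercaruncular tissue. The fixed-block values again came from a single slide per tissue, with 3 pregnant cows against 1 cyclic cow. In caruncular tissue, leaving out all arrays of the third scan batch (2 cows and 4 repeat arrays) gave -0.0260 for ITGA5 and -5.39e-05 for ITGA8, and leaving out the 2 cows alone gave -0.0339 for ITGA5 and 0.0056 for ITGA8, both settings chosen after the data were seen. Leaving out 1 cow gave -0.0183 to 0.11 (ITGA5) and -0.0473 to 0.20 (ITGA8) in caruncular tissue, -0.0714 to 0.14 (ITGB1) in intercaruncular tissue, and -0.000580 to 0.0364 for ITGA9 between tissues. For the interaction all probes called were 11 with no filter, 6, 2, 2 and 2 with the repeat array, the first array, the stricter filter and the deposited table, and 0 with slide as a random block, in place of 3, and 1 (without cow Pregnant_926) to 104 (without cow Non-Pregnant_9786) on leaving out 1 cow. For fertility in intercaruncular tissue 4 were called with no filter and 0 with slide as a fixed block in place of 7, and 3 (without cow Pregnant_1943) to 43 (without cow Pregnant_9790) on leaving out 1 cow. With the cow as a replicate block, which pairs tissues, the number of members called remained 0 for the interaction and 4 between tissues. The methods' t-test called 2 and 1 members for pregnancy (1382 and 990 of all probes). Slide, scan batch and tissue could be separated only in cows Non-Pregnant_9786 and Pregnant_9790, and ITGA4 was too dim to be tested.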
